A study of Mus musculus with 40 samples.

Results

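The bispecific antibody binds vascular endothelial growth factor A (VEGFA) with one arm and angiopoietin-2 (ANG2) with the other. Its effect was read against control IgG in mouse retinas with oxygen-induced retinopathy (OIR) at postnatal day 19 (P19), over all genes. The members are 8 whole-retina RNA-seq libraries, 4 with the bispecific antibody and 4 with IgG, of the 40 libraries in the series. All mice were C57BL/6J. Pups of every OIR group breathed 75% oxygen from P7, went back to room air at P12, and had 1 µl of antibody injected into the vitreous at P14. The bispecific antibody (B20.4.1_LC10) was given at 0.4 µg/µl, the single antibodies against ANG2 (LC10) and VEGFA (B20.4.1) at 0.2 µg/µl each, and IgG at 0.4 µg/µl. The single antibodies (4 retinas each at P19) and the 4 P19 control retinas without OIR are used only to place the bispecific values, and the labels do not say whether control eyes were injected. The P17 bispecific and IgG groups, also of 4 retinas, give the same comparison 2 days earlier. Each library came from 1 retina, and the labels do not say whether any retinas shared a mouse or litter, so the p-values measure the spread between retinas.

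In OIR, high oxygen stops the growth of retinal capillaries in the pup. On return to room air the tissue without vessels becomes hypoxic, and abnormal vessel tufts grow into the vitreous before they regress. VEGFA is the main hypoxia-induced growth factor for endothelial cells and acts through the receptors encoded by Kdr and Flt1. ANG2, encoded by Angpt2, opposes the vessel-stabilising signal of angiopoietin-1 at the TIE2 receptor, encoded by Tek. The vessels feed the neurons of the inner retina. Photoreceptors pass light signals to bipolar cells, amacrine cells feed inhibitory GABA and glycine signals back onto them, and ganglion cells carry the output. A whole-retina library mixes all of these cells, so fewer cells of a type and less RNA per cell cannot be told apart.

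The total expected counts of the 8 libraries ran from 9155091 to 21477010. The lowest was bispecific replicate 3, which also stood apart from the other 7: its median correlation with them across genes was 0.903, against 0.923 to 0.938 for each of the others. Rod, cone, bipolar, amacrine, ganglion cell, Muller glia and microglia markers were present in every library, whereas the endothelial marker Cdh5 was near the detection floor in both groups (0.322 ± 0.276 CPM with the bispecific antibody and 0.54 ± 0.223 CPM with IgG, SD, n = 4 each). CPM are counts divided by the scaled size of each library. The groups also differed in sex. All 4 bispecific retinas carried Xist, the RNA of the inactive X chromosome, at 235 to 783 CPM and no counts of the Y-linked Ddx3y, whereas all 4 IgG retinas carried Ddx3y at 60.3 to 68.1 CPM. Sex and antibody therefore cannot be told apart within these 8 libraries, and the values with sex as a term, estimated from the 6 other groups that held both sexes, are given with the called genes. Some libraries of those 6 groups also carried lower counts of the other sex's genes, the most in anti-VEGFA replicate 3 at P19 with 104 CPM of Xist beside 219 CPM of Y-linked genes, and the source of these counts was not tested.

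Few genes were called between bispecific and IgG retinas at P19, and 10 of the 11 called were lower with the bispecific antibody. Of 23495 genes tested, 1 was called higher (0.00426%) and 10 lower (0.0426%) by edgeR's quasi-likelihood test with Benjamini-Hochberg adjusted p under 0.05, or 0.0468% in all. At an unadjusted p under 0.05, 4.6% of genes were higher and 3.64% lower. The genes that fell included Scgn, Gabrb2, Gsg1, Crot, Gng13, Qpct, S1pr3, Lrrn3 and Gpm6a, and the gene that rose was Ip6k2. They include a calcium-binding protein of cone bipolar cells, a G-protein subunit of ON bipolar cells and a GABA-A receptor subunit. In all 11 the 4 bispecific libraries did not overlap the 4 IgG libraries, as was the case for 3.78% of all tested genes, 2.03% with the bispecific libraries higher and 1.75% with them lower. Of 10 listed sex-linked genes none was called, although the libraries were apart in 4 with the bispecific group higher and in 4 with it lower. The fit takes its spread from all 10 groups, 6 of which held both sexes. The calls therefore do not hold every gene that differed between the 8 libraries. The median log2 fold of all genes was 0.03. DESeq2 made 73 calls in the same libraries, 44 higher and 29 lower, with all 11 among them. Another 11 of the 73 lie on the X or Y chromosome.

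How many genes were called moved with single libraries and with the way sex was treated. Leaving out 1 of the 8 libraries at a time gave 3 to 14 calls, with 3 calls without IgG replicate 1, IgG replicate 2 or bispecific replicate 4, 4 without IgG replicate 4, 8 without bispecific replicate 1 or bispecific replicate 3, and 14 without IgG replicate 3 or bispecific replicate 2. Scgn and Ip6k2 kept their calls in all 8 of these fits, Gabrb2 in 6 and the other genes in 2 to 4. With sex as a term no gene was called (edgeR, 1082 at an unadjusted p under 0.05), while the log2 folds ran from -1.14 for Lrrn3 to -0.70 for Gpm6a among the lower genes named here and stood at 0.83 for Ip6k2. The sex term itself called 14 genes, every one on the X or Y chromosome and none of the 11. A fit to the 8 libraries alone called 6 genes, all X- or Y-linked.

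Promoter sequences are shown for the genes called most often with a library left out, Scgn, Ip6k2 and Gabrb2, and for S1pr3, the one promoter among those found that held a searched motif. They come from RefSeq on GRCm38.p6 and run from 250 bases before to 50 bases after the start site given in its table, which for Gabrb2, Ip6k2 and Scgn lies inside the gene's outer bounds. They are written 5′ to 3′ on the gene's strand, for Scgn chr13:23991165-23991464 (minus strand), for Ip6k2 chr9:108783562-108783861 (plus), for Gabrb2 chr11:42420190-42420489 (plus) and for S1pr3 chr13:51408368-51408667 (plus). Capitals mark a match to a motif on either strand.
Scgn: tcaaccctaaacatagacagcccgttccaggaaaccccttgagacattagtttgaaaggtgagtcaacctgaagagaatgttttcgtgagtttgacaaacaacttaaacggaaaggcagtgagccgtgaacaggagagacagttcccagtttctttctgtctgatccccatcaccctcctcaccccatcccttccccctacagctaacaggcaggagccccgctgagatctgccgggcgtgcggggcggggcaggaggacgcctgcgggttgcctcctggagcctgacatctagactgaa
Ip6k2: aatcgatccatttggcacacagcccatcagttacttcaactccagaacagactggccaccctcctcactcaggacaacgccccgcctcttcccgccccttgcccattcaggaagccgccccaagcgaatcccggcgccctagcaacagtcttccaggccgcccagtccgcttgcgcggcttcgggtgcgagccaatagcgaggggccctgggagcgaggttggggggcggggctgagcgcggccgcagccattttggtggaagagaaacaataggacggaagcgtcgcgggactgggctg
Gabrb2: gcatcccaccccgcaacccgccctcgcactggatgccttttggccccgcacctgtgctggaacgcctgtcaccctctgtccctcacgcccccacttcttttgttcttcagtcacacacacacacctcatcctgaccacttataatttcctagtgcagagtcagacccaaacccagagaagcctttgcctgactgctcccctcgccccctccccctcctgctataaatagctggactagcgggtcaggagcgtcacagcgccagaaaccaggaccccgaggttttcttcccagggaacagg
S1pr3: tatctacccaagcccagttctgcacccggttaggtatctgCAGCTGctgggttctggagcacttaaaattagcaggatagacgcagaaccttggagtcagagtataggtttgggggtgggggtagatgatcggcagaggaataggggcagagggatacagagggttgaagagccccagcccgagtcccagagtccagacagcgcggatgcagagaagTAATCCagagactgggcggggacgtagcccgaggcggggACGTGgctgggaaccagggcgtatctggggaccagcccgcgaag
The letters searched on both strands were GGATTA (photoreceptor and bipolar homeodomain factors), TAATTA (other homeodomain factors), CAGCTG (an E-box of neural bHLH factors) and ACGTG (the core of hypoxia response elements), none of which overlapped another in these windows. S1pr3 held GGATTA, as its reverse complement, CAGCTG and ACGTG, and none of the 8 called genes with a promoter in the table held TAATTA. Over 27025 mouse promoters of the same length, 7.15% held GGATTA, 5.32% TAATTA, 16.1% CAGCTG and 19.6% ACGTG. Lrrn3 and Qpct had no entry.

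**Figure D1:**
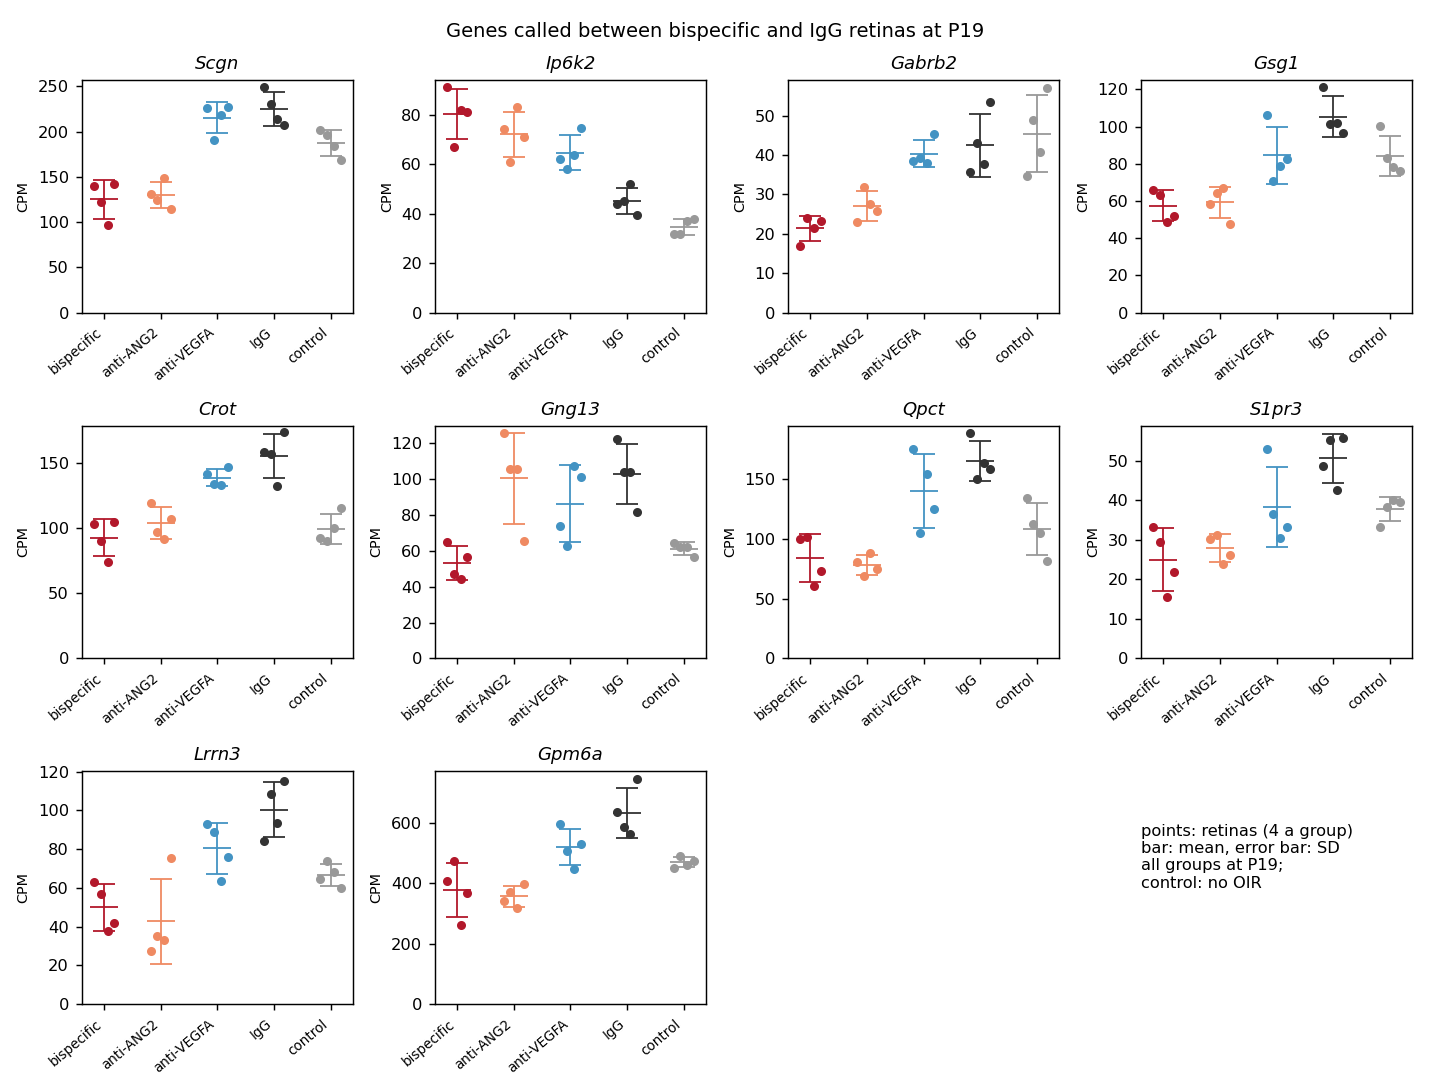
CPM (y axis, from 0) of 10 called genes in each P19 retina, with bispecific, anti-ANG2, anti-VEGFA, IgG and control groups from left to right. Points are retinas, the long bar is the mean and the error bar the SD (n = 4). The bispecific points lie below the IgG points in every panel except Ip6k2, where they lie above.

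Among bipolar cell genes, Scgn fell. It encodes secretagogin, a calcium-binding protein found in cone bipolar cells of the mouse retina (GRCm38 chromosome 13, 23953456 to 23991327). The 4 bispecific retinas had 139, 122, 96.5 and 142 CPM of Scgn, against 250, 230, 214 and 207 CPM in the IgG retinas. Every bispecific retina was below the lowest IgG retina. The log2 fold was -0.85 ± 0.13 (SE, edgeR adjusted p = 0.000819), and with sex as a term it was -0.76 (adjusted p = 0.0893). Of the 14 listed cone bipolar genes and bipolar transcription factors, Scgn was the only one called and 13 had a negative log2 fold, where 47.2% of all genes did. The list's median was -0.35.

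Gng13, the gamma subunit of the G protein that couples the glutamate receptor mGluR6 to its channel in ON bipolar cells, also fell. Bispecific retinas held 64.8, 46.8, 44.3 and 56.5 CPM of Gng13, against 122, 104, 104 and 81.6 CPM in IgG retinas. The groups did not overlap, with bispecific replicate 1 and IgG replicate 4 nearest to each other. The log2 fold was -0.95 ± 0.19 (SE, edgeR adjusted p = 0.0254) and -0.71 with sex as a term (adjusted p = 0.756), where the sex coefficient of Gng13 was -0.25 for female minus male (unadjusted p = 0.0206). The gene model overlaps Chtf18 on chromosome 17 (25717172 to 25719102), so reads of both cannot be separated where strand is unknown. Per transcript length Gng13 was the most abundant of the 11 genes, at 606 ± 75.6 TPM with the bispecific antibody and 1096 ± 61.2 TPM with IgG, and Gabrb2 the least, at 3.71 ± 0.949 TPM and 7.25 ± 2.26 TPM in the same groups.

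Of the 16 listed ON bipolar signalling genes 1 was called, 4 were lower at an unadjusted p under 0.05 and the median log2 fold was -0.28. Among all genes 3.64% were lower at that unadjusted level. Besides Gng13, the 4 were Isl1, Cabp5 and Pcp2, and for each the groups did not overlap. Isl1, a LIM homeodomain factor of ON bipolar cells, stood at 99.1, 118, 98.2 and 73.9 CPM in bispecific retinas, against 153, 183, 166 and 171 CPM in IgG retinas (log2 fold -0.79 ± 0.17, edgeR adjusted p = 0.0687). Cabp5, a calcium-binding protein of rod and cone bipolar cells, averaged 69.7 ± 8.53 CPM with the bispecific antibody and 109 ± 11.6 CPM with IgG (adjusted p = 0.142). Both missed the threshold. Grm6, the mGluR6 receptor itself, was at 80.1 ± 44.8 CPM with the bispecific antibody and 99.5 ± 10.2 CPM with IgG, with the highest value of all 8 libraries, 146 CPM, in bispecific replicate 3.

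Among GABA-A receptor genes Gabrb2 fell. These pentameric chloride channels carry fast inhibition from amacrine cells onto bipolar, amacrine and ganglion cells. Gabrb2, the beta2 subunit (chromosome 11, 42419515 to 42632591), held 17.03, 23.9, 21.4 and 23.2 CPM in bispecific retinas, against 35.6, 42.9, 37.8 and 53.5 CPM in IgG retinas. Every bispecific value was under the lowest IgG value. Its log2 fold was -0.99 ± 0.18 (SE, edgeR adjusted p = 0.0101), and it missed the threshold without IgG replicate 4 (adjusted p = 0.0858) and without bispecific replicate 1 (adjusted p = 0.069). Its log2 fold with sex as a term was -1.01 (edgeR adjusted p = 0.102).

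Over the 20 listed GABA and glycine receptor genes, 19 had a negative log2 fold and the median was -0.42, against 0.03 for all genes. Of these 20, 2 were called lower, 8 were lower at an unadjusted p under 0.05 and none was higher at that level. In 5 of the 20 the libraries of the groups were apart, all in the lower direction, where 1.75% of all genes were. Those at the unadjusted level included Gabra4, Gabrr1, Glra1 and Glra3. Gabrr1, the rho1 subunit of the slow GABA receptor on bipolar cell terminals, held 77.7, 83.8, 68.4 and 72.9 CPM in bispecific retinas, against 125, 154, 112 and 145 CPM in IgG retinas. The groups were apart, but the gene missed the threshold (log2 fold -0.82 ± 0.20, edgeR adjusted p = 0.176). The list's median stayed between -0.54 and -0.31 in every alternative fit, with -0.46 under the sex term and -0.47 without bispecific replicate 3. Its summed level ran from 668 to 796 CPM in bispecific retinas and from 908 to 1115 CPM in IgG retinas.

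In the lists of other neuronal genes none was called. Among all genes 3.64% were lower at the unadjusted level. Of 26 synaptic adhesion genes 6 were lower at that level, with a median log2 fold of -0.23. They included Cntn4, Cntnap2, Flrt2, Lrrtm4 and Tenm3. Of 17 amacrine genes 3 were lower at that level, namely Pax6, Tfap2b and the neuropeptide gene Vip (median -0.30), and of 8 horizontal cell genes 2, Calb1 and Septin4 (median -0.37). Glutamate receptor genes had a median of -0.19 over 24 genes, with Gria4 alone at the unadjusted level. Ganglion cell and neurofilament genes had a median of -0.06 and no member at that level among 18.

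Rod and cone genes had mostly positive log2 folds, and none was called. Of 18 rod genes 16 had a positive log2 fold (median 0.22), where 47.2% of all genes had a negative one. The list's summed level was 59594 to 118681 CPM in bispecific retinas and 70223 to 98136 CPM in IgG retinas, lowest of all 8 in bispecific replicate 3. Without that replicate the rod median was 0.39 and 13 of the 18 genes were higher at an unadjusted p under 0.05, where with it none was. Among 13 cone genes Arr3, cone arrestin, and Pde6c, the cone phosphodiesterase, were higher at the unadjusted level (edgeR adjusted p = 0.511 and adjusted p = 0.59), and the median was 0.16. In the fit with all libraries 4.6% of all genes were higher at that level.

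**Figure D2:**
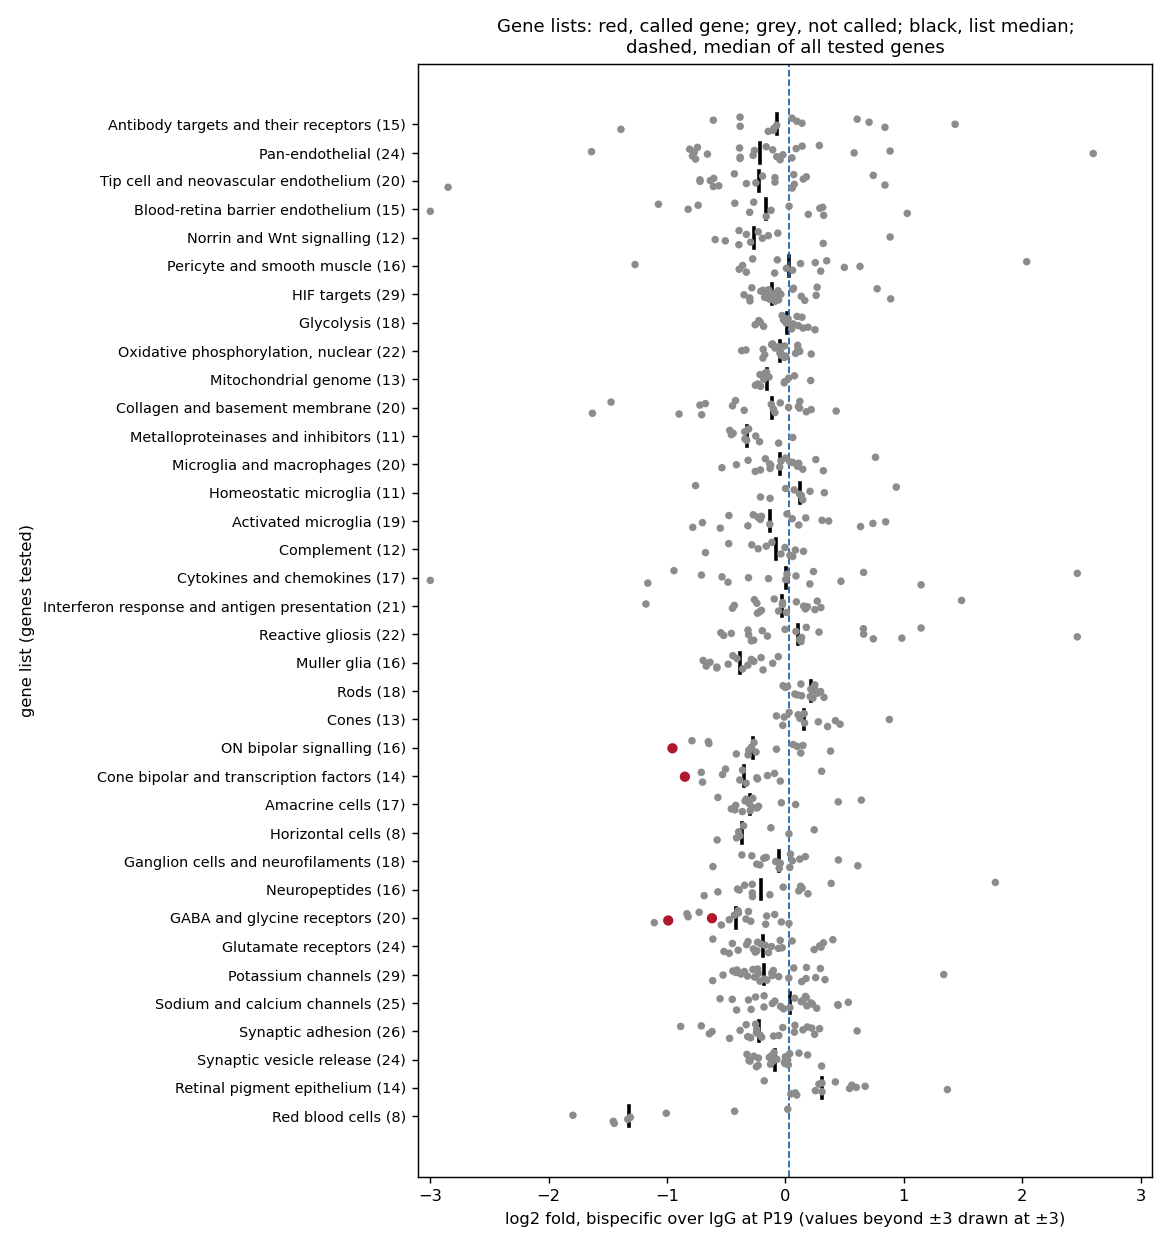
Log2 fold of bispecific over IgG retinas at P19 (x axis) for the members of each gene list (y axis, number of tested genes in brackets). Red points are called genes, grey points are not, black bars are list medians and the dashed line is the median of all tested genes; the GABA and glycine receptor list has 19 of 20 points below 0.

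The other called genes act in membranes, signalling and metabolism. Gpm6a encodes a neuronal membrane glycoprotein that promotes neurite growth. It stood at 409, 474, 262 and 367 CPM in bispecific retinas, against 636, 585, 561 and 746 CPM in IgG retinas (log2 fold -0.74 ± 0.16, SE, edgeR adjusted p = 0.0449). Lrrn3, a leucine-rich repeat membrane protein of neurons that lies within the gene Immp2l, held 62.9, 57.0, 38.02 and 41.7 CPM with the bispecific antibody, against 84.2, 109, 93.3 and 115 CPM with IgG (log2 fold -1.01 ± 0.20, adjusted p = 0.0317). For both genes the lowest of the 8 values was in bispecific replicate 3. Without that replicate neither was called, at log2 folds of -0.60 for Gpm6a and -0.90 for Lrrn3. Gsg1 (-0.80), Crot (-0.65), Gng13 (-0.88), Qpct (-0.85) and S1pr3 (-0.84) were not called without it either. With sex as a term the log2 fold was -0.70 for Gpm6a (edgeR adjusted p = 0.618) and -1.14 for Lrrn3 (edgeR adjusted p = 0.102).

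S1pr3 encodes a receptor for sphingosine-1-phosphate, a blood lipid that acts on endothelium, mural cells and glia. Bispecific retinas had 33.3, 29.3, 15.4 and 21.9 CPM of S1pr3, against 48.7, 55.2, 42.6 and 55.9 CPM in IgG retinas. The groups did not overlap and the spread within the bispecific group exceeded 2-fold. The log2 fold was -1.01 ± 0.20 (SE, edgeR adjusted p = 0.0273) and -1.004 with sex as a term (adjusted p = 0.299). Qpct encodes glutaminyl cyclase, which converts the N-terminal glutamine of peptides and chemokines to pyroglutamate. It held 99.4, 101, 60.5 and 72.8 CPM in bispecific retinas, against 188, 150, 163 and 158 CPM in IgG retinas (log2 fold -0.98 ± 0.19, adjusted p = 0.0254). With sex as a term its log2 fold was -0.74 (adjusted p = 0.747), and its sex coefficient was -0.24 for female minus male (unadjusted p = 0.0324).

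Crot encodes the peroxisomal carnitine O-octanoyltransferase, which exports medium-chain fatty acids from peroxisomes. It had 103, 90.1, 73.8 and 105 CPM with the bispecific antibody and 159, 157, 133 and 174 CPM with IgG (log2 fold -0.74 ± 0.14, SE, edgeR adjusted p = 0.0254). Gsg1, which encodes a membrane protein first described in germ cells, had 65.9, 63.2, 48.6 and 52.0 CPM with the bispecific antibody and 122, 101, 102 and 96.5 CPM with IgG (log2 fold -0.87 ± 0.16, adjusted p = 0.0187). In both genes the bispecific group was apart from and below the IgG group. Neither was called with sex as a term (edgeR, Crot log2 fold -0.77, adjusted p = 0.155; Gsg1 log2 fold -0.75, adjusted p = 0.509). Ip6k2, an inositol hexakisphosphate kinase that makes inositol pyrophosphates, was the one gene that rose. It held 91.3, 67.0, 82.0 and 81.3 CPM in bispecific retinas, against 44.1, 45.2, 51.9 and 39.4 CPM in IgG retinas, so that the lowest bispecific value was above the highest IgG value (log2 fold 0.83 ± 0.14, adjusted p = 0.00458). With sex as a term the log2 fold was 0.83 (adjusted p = 0.0893).

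The genes with the smallest p among those higher but not called were Igsf9, Wdr66, Nlrp4b, Dnase2b and Ttn. Igsf9, an immunoglobulin-family protein of dendrites and synapses, held 53.1, 67.5, 83.3 and 73.5 CPM with the bispecific antibody, against 35.3, 38.2, 46.1 and 34.6 CPM with IgG (edgeR adjusted p = 0.233). Wdr66 averaged 33 ± 6.09 CPM in bispecific retinas and 20.1 ± 2.35 CPM in IgG retinas (adjusted p = 0.287). Both pairs of groups were apart. Nlrp4b and Dnase2b had no counts in any IgG retina, where the floor of 3 counts lies at 0.14 to 0.195 CPM, and 0.0570 to 1.75 CPM and 0.0570 to 1.09 CPM in bispecific retinas. Ttn, which encodes titin, overlapped between the groups, with its highest value, 40.6 CPM, in bispecific replicate 3.

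The genes that the antibody targets showed no called difference in RNA. Vegfa held 101, 144, 175 and 185 CPM in bispecific retinas, against 135, 178, 152 and 204 CPM in IgG retinas. The groups overlapped through most of their range (log2 fold -0.15 ± 0.20, SE, edgeR adjusted p = 0.912). Angpt2 held 7.40, 5.13, 4.12 and 2.52 CPM with the bispecific antibody and 9.56, 6.35, 3.04 and 10.4 CPM with IgG (log2 fold -0.61 ± 0.40, adjusted p = 0.746). Both Angpt2 groups spanned more than 2-fold. The VEGF receptor genes were not called either, with Kdr at 79.6 ± 10.7 CPM in bispecific retinas and 104 ± 26.2 CPM in IgG retinas (adjusted p = 0.7), and Flt1 at 37.4 ± 4.56 CPM and 39.3 ± 7.22 CPM in the same groups (adjusted p = 0.959). Tek, the ANG2 receptor gene, had few counts and ranged from 0.0655 to 3.94 CPM in bispecific retinas and from 0 to 2.54 CPM in IgG retinas. Of 15 genes of the antibody targets and their receptors, none was at an unadjusted p under 0.05, and the median log2 fold was -0.07. The median was positive in 7 of the 22 alternatives, at up to 0.11, and Angpt2 had a log2 fold of -0.96 with sex as a term (unadjusted p = 0.0407, edgeR adjusted p = 1).

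No gene of the vessel lists was called. Of 24 pan-endothelial genes 17 had a negative log2 fold (median -0.21), where 47.2% of all genes did. Cd34, Esam and Icam2 were lower at an unadjusted p under 0.05, as were 3.64% of all genes. The list's summed level was 189 to 214 CPM in bispecific retinas and 219 to 296 CPM in IgG retinas. Esm1, a marker of endothelial tip cells, was at 0.131, 0, 0.263 and 0 CPM in bispecific retinas, against 0.911, 0.327, 1.13 and 0.508 CPM in IgG retinas. Every bispecific value was at or under the floor of 3 counts and every IgG value above it, and the unadjusted p was 0.0374 (edgeR adjusted p = 0.576). Of 20 tip cell and neovascular genes Esm1 was the only one at the unadjusted level (median -0.22). Apln, the apelin peptide of tip cells, held 33.2, 17.8, 18.7 and 39.4 CPM with the bispecific antibody and 24.7, 20.3, 27.8 and 32.2 CPM with IgG (adjusted p = 0.98). Plvap, which forms the diaphragms of leaky capillaries, was at 4.51 ± 1.23 CPM and 5.37 ± 0.731 CPM in the same groups (adjusted p = 0.925), and Cldn5, a tight-junction protein, at 8.91 ± 3.24 CPM and 9.99 ± 1.04 CPM (adjusted p = 0.941). Pecam1, a junction protein of endothelium, was at 1.69 ± 0.359 CPM and 1.73 ± 0.631 CPM (adjusted p = 0.99). Blood-retina barrier genes had a median of -0.16 over 15 genes (0.00 without bispecific replicate 3), Norrin and Wnt signalling genes -0.26 over 12, and pericyte and smooth muscle genes 0.03 over 16, with -0.15 to 0.28 over the alternatives.

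**Figure D3:**
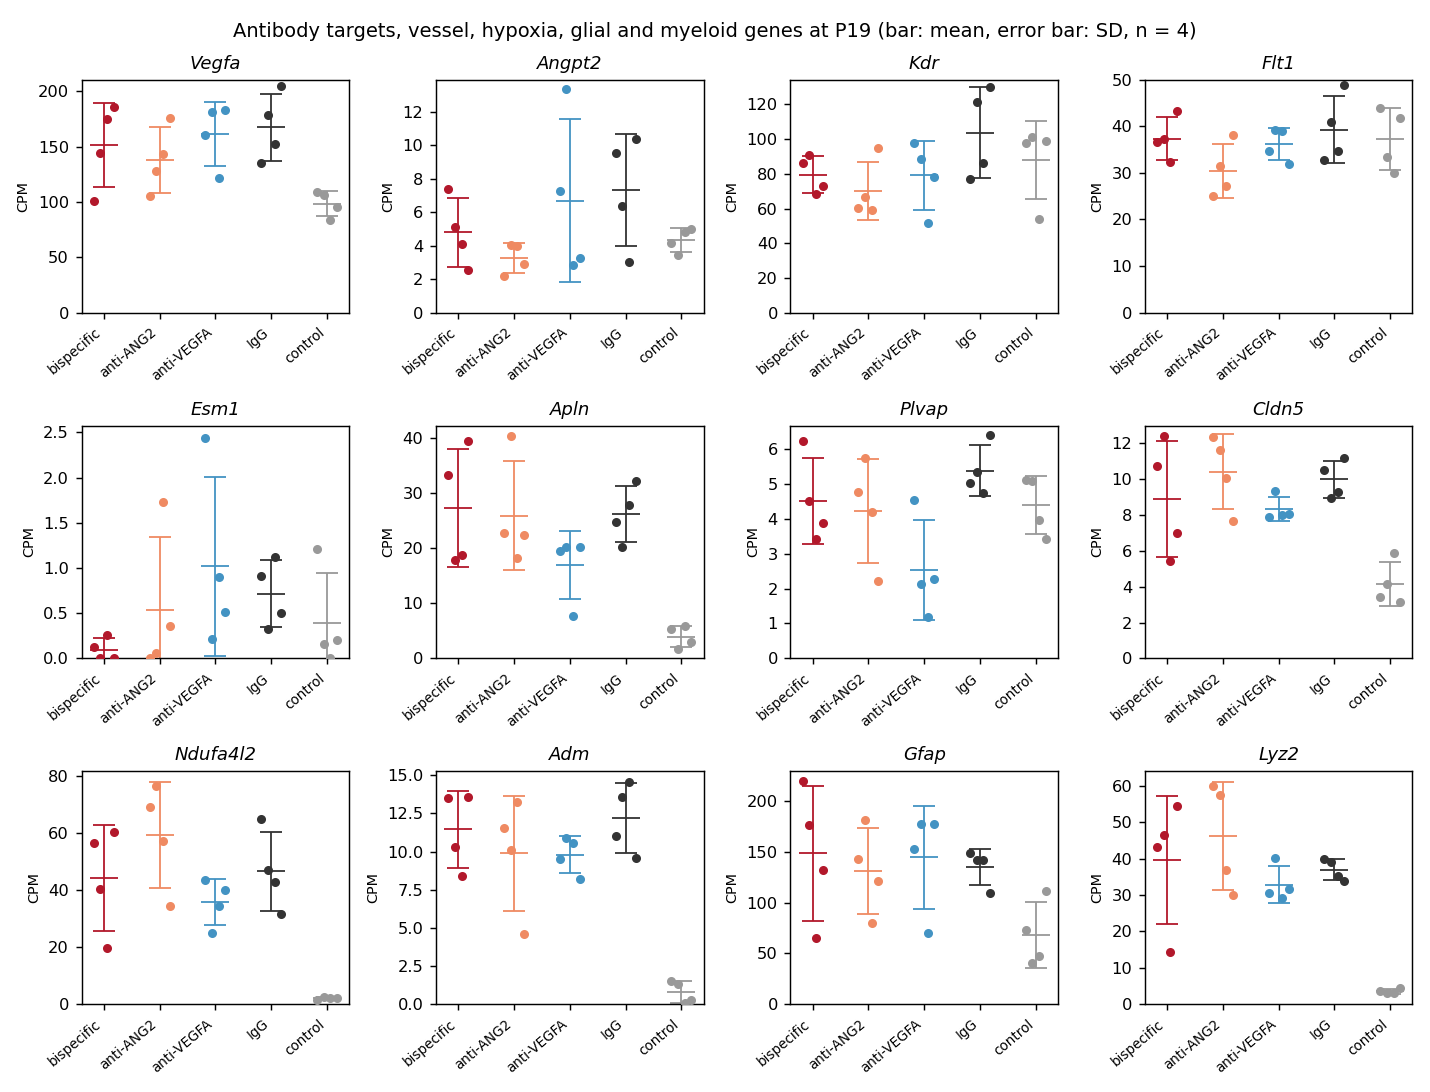
CPM (y axis, from 0) of 12 target, vessel, hypoxia, glial and myeloid genes in each P19 retina, with groups ordered bispecific, anti-ANG2, anti-VEGFA, IgG and control. Points are retinas, the long bar is the mean and the error bar the SD (n = 4); bispecific and IgG points overlap in each panel except Esm1.

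Genes of the response to low oxygen were not called either. Of 29 tested HIF targets none reached the unadjusted level (median log2 fold -0.12), and the median turned positive in 4 alternatives. It was 0.03 without bispecific replicate 3 and 0.03 without the 3 libraries that stood apart, which include that replicate. With Y-linked counts as a covariate it was 0.09, and with sex as a term 0.02. Ndufa4l2, a HIF-induced mitochondrial protein, held 56.7, 40.6, 19.7 and 60.4 CPM in bispecific retinas, against 65.0, 47.0, 42.7 and 31.6 CPM in IgG retinas (edgeR adjusted p = 0.973). Both groups were far above the control retinas, whose highest value was 2.40 CPM. Adm, the vasodilator adrenomedullin, averaged 11.4 ± 2.52 CPM with the bispecific antibody, 12.2 ± 2.28 CPM with IgG and 0.788 ± 0.737 CPM in control retinas (bispecific against IgG adjusted p = 0.978). Glycolysis genes had a median of 0.01 over 18 genes.

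Glial and immune lists differed in their sign. All 16 Muller glia genes had a negative log2 fold (median -0.39), 7 of them at the unadjusted level and none called. Among all genes 47.2% had a negative log2 fold and 3.64% were lower at the unadjusted level. Slc1a3, the glial glutamate transporter, averaged 202 ± 61.2 CPM in bispecific retinas and 302 ± 37.5 CPM in IgG retinas (edgeR adjusted p = 0.489), and Aqp4, the water channel of Muller endfeet, 84.2 ± 25.3 CPM and 126 ± 10.8 CPM in the same groups (adjusted p = 0.405). The list depended on bispecific replicate 3: without it the median was -0.22 and 2 genes were at the unadjusted level. Gfap, the intermediate filament of reactive glia, was at 220.3, 176, 65.3 and 132 CPM with the bispecific antibody and 149, 142, 142 and 109 CPM with IgG (adjusted p = 0.959), and the 22 reactive gliosis genes had a median of 0.10. Edn2, an endothelin released by stressed photoreceptors, ranged from 2.82 to 13.4 CPM in bispecific retinas and from 2.23 to 4.68 CPM in IgG retinas (adjusted p = 0.784).

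Of 20 microglia and macrophage genes none reached the unadjusted level (median -0.04). Lyz2, the lysozyme of macrophages, averaged 39.7 ± 17.5 CPM with the bispecific antibody and 37 ± 2.91 CPM with IgG, and C1qb, a complement subunit made by microglia, 88.2 ± 28.9 CPM and 86 ± 17.4 CPM in the same groups. Aif1, the microglial protein IBA1, was at 1.69 ± 0.544 CPM and 2.02 ± 0.536 CPM. Among 19 genes of activated microglia Cd9, Lgals3, Lpl and Spp1 were lower at the unadjusted level (median -0.13). Among 11 homeostatic genes P2ry13, a purine receptor, was higher at that level (median 0.12). Of all genes 3.64% were lower and 4.6% higher at that level. The chemokine gene Cxcl10 was at 0.131, 0, 0 and 0 CPM in bispecific retinas, against 0.780, 1.59, 0.676 and 2.18 CPM in IgG retinas (edgeR unadjusted p = 0.0148, adjusted p = 0.505). Every bispecific value was under the floor of 3 counts. The groups were apart, as were those of 1.75% of all genes in that direction. Ccl2, the monocyte chemokine, was at 0.528 ± 0.422 CPM and 0.232 ± 0.273 CPM (adjusted p = 0.899).

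RNA of blood and of neighbouring tissues was also compared. Of 8 tested red blood cell genes 6 were lower at the unadjusted level, where 3.64% of all genes were. None of the 8 was called (median log2 fold -1.32). Their summed level was 282 to 479 CPM in bispecific retinas and 442 to 909 CPM in IgG retinas, with Alas2 at 0 in bispecific replicate 3. With sex as a term the median was -0.75 and none reached that level. Pigment epithelium genes summed to 598 to 2694 CPM with the bispecific antibody and 1226 to 1682 CPM with IgG. Of their 14 log2 folds 13 were positive (median 0.31), where 47.2% of all genes had a negative one. Rpe65, the visual-cycle isomerase, overlapped between the groups (edgeR adjusted p = 0.979). Lens genes summed to 66.8 to 459.7 CPM and 129.96 to 279 CPM in the same groups, with Cryaa, alpha-crystallin, at 146 CPM in bispecific replicate 1 and Mip at 0 in 6 of the 8 libraries. With pigment epithelium and lens levels as covariates all 11 calls remained, and with the share of mitochondrial counts as a covariate all 11 remained among 18. The part of red blood cell RNA in the results was not tested.

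At P17, 2 days before, no gene was called in the same comparison (0% of 23495; smallest edgeR adjusted p = 0.595), and 921 genes were at an unadjusted p under 0.05, 2.29% of all higher and 1.63% lower. Of the 11 genes, 8 had the same sign at P17 as at P19, and 2, Crot and Gpm6a, were at an unadjusted p under 0.05 (edgeR). The share of all genes with the same sign at both ages was not computed. Crot averaged 123 ± 23.6 CPM in bispecific and 160 ± 15.3 CPM in IgG retinas at P17 (log2 fold -0.38, unadjusted p = 0.0114), and Gpm6a 543 ± 85.2 CPM and 723 ± 113 CPM in the same groups (log2 fold -0.41, unadjusted p = 0.0105). Gabrb2 held 41.1, 42.1, 41.9 and 44.3 CPM with the bispecific antibody and 48.2, 36.2, 39.3 and 32.9 CPM with IgG at P17, so that the groups overlapped. Scgn held 184, 223, 225 and 216 CPM and 253, 212, 252 and 217 CPM in the same P17 groups, which overlapped too. Ip6k2 held 46.2, 42.1, 44.5 and 44.5 CPM with the bispecific antibody at P17, against 41.5, 41.6, 37.2 and 39.3 CPM in the P17 IgG retinas. These groups did not overlap, but the nearest values were 42.1 and 41.6 CPM (log2 fold 0.15, edgeR unadjusted p = 0.281). The share of all genes with P17 groups apart was not computed.

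The difference between the P19 and P17 effects was tested directly, and no gene was called (0% of 23495). At an unadjusted p under 0.05 there were 1055 genes, 2.55% of all with a positive difference and 1.94% with a negative one, and DESeq2 called 19. Of the 11 genes, which were chosen by their P19 effect, 9 reached an unadjusted p under 0.05 in this test. The P19 minus P17 difference in log2 fold was -1.10 ± 0.25 for Gabrb2 (SE, edgeR adjusted p = 0.657), -1.05 ± 0.26 for Gng13 (adjusted p = 0.759), -0.71 ± 0.18 for Scgn (adjusted p = 0.759) and 0.68 ± 0.20 for Ip6k2 (adjusted p = 0.939). Crot and Gpm6a were the 2 that did not reach that level. The P17 bispecific and IgG groups each held 2 libraries with mostly Xist and 2 with mostly Y-linked counts, unlike those at P19.

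**Figure D4:**
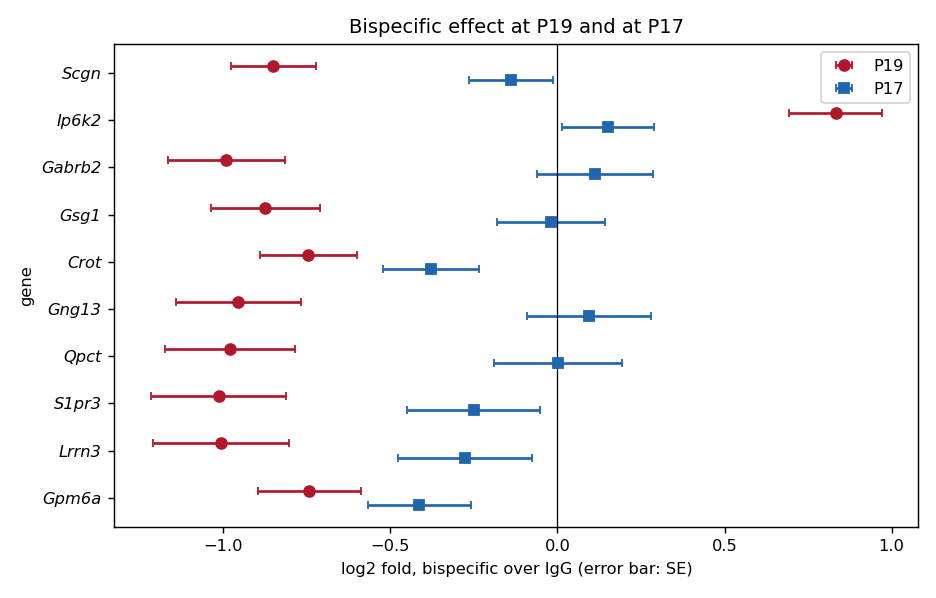
Log2 fold of bispecific over IgG retinas (x axis) for 10 called genes (y axis) at P19 (circles) and P17 (squares), with error bars of 1 SE. At P17 the points lie between -0.41 and 0.15, nearer to 0 than the P19 point of each gene.

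Against anti-VEGFA, which binds one of its targets, the bispecific antibody gave 1 higher (0.00426%) and 12 lower (0.0511%) calls at P19, or 0.0553% of genes. The doses differed, 0.4 µg/µl against 0.2 µg/µl, so the amount of antibody and its targets cannot be told apart here. This comparison shares the 4 bispecific libraries with the one against IgG. The anti-VEGFA group held 2 libraries with mostly Xist and 2 with mostly Y-linked counts. The latter also carried Xist, at 104 CPM in replicate 3 and 17.4 CPM in replicate 4. Ube3a, the ubiquitin ligase lost in Angelman syndrome, was lower than with anti-VEGFA: it held 131, 154, 135 and 153 CPM with the bispecific antibody, against 245, 250, 252 and 274 CPM with anti-VEGFA (log2 fold -0.83 ± 0.12, SE, edgeR adjusted p = 0.000575). The IgG retinas lay between these groups, at 171, 184, 157 and 208 CPM. Scgn stood at 226, 191, 219 and 227 CPM with anti-VEGFA, above every bispecific retina (log2 fold -0.79 ± 0.13, adjusted p = 0.00221). Gabrb2 stood at 38.6, 39.3, 38.04 and 45.4 CPM with anti-VEGFA, also above every bispecific retina (log2 fold -0.91 ± 0.18, adjusted p = 0.0159).

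Mapk8, the stress kinase JNK1, held 20.7, 19.9, 27.7 and 15.6 CPM with the bispecific antibody, against 37.2, 44.6, 40.8 and 40.9 CPM with anti-VEGFA (adjusted p = 0.0113 by edgeR). Its IgG retinas held 30.4, 35.2, 28.7 and 21.3 CPM, which overlapped the bispecific values and lay below every anti-VEGFA value. Neurod4, a bHLH factor of bipolar and amacrine cell development, held 233, 254, 253 and 245 CPM with the bispecific antibody, against 391, 392, 380 and 453 CPM with anti-VEGFA (log2 fold -0.71, edgeR adjusted p = 0.0155). Its IgG retinas held 375, 373, 386 and 385 CPM, and with an adjusted p = 0.0687 it was, with Isl1, next outside the threshold against IgG. Tmem80, Gnpda2, Zfx, Atrx, Septin2, Slc15a2 and Mag were the other genes lower than with anti-VEGFA. Among these, Zfx and Atrx overlapped between bispecific and IgG retinas, and the others did not. Selenbp1, a selenium-binding methanethiol oxidase, was the one gene higher, at 74.5, 78.4, 49.9 and 94.0 CPM with the bispecific antibody, against 47.1, 43.4, 26.1 and 37.3 CPM with anti-VEGFA (adjusted p = 0.033). The number of calls moved with single libraries, from 2 without bispecific replicate 2 to 460 without bispecific replicate 3.

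Against anti-ANG2 the bispecific antibody gave no call (edgeR, 0% of 23495 genes; 2725 at an unadjusted p under 0.05), while DESeq2 called 419 genes and edgeR 709 without anti-ANG2 replicate 4. Anti-ANG2 was given at 0.2 µg/µl, the bispecific antibody and IgG at 0.4 µg/µl. The amount of antibody and its targets cannot be told apart here either. The anti-ANG2 group held 2 libraries with mostly Xist and 2 with mostly Y-linked counts, unlike the bispecific and IgG groups. Scgn was at 125 ± 21 CPM with the bispecific antibody and 130 ± 14.5 CPM with anti-ANG2 (difference in log2 fold -0.05 ± 0.13, SE). Gabrb2 was at 21.4 ± 3.09 CPM and 27.1 ± 3.76 CPM in the same groups (-0.34 ± 0.18), and Ip6k2 at 80.4 ± 10 CPM and 72.3 ± 9.11 CPM (0.15 ± 0.14). Gng13 was the gene with the smallest adjusted p: it held 64.8, 46.8, 44.3 and 56.5 CPM with the bispecific antibody, against 126, 105, 106 and 65.3 CPM with anti-ANG2 (log2 fold -0.92 ± 0.19, adjusted p = 0.0619). Every bispecific value lay under every anti-ANG2 value, with anti-ANG2 replicate 4 nearest. The comparisons of anti-ANG2 and of the bispecific antibody with IgG share the IgG libraries. Against IgG, the bispecific log2 folds were -0.85 for Scgn, -0.99 for Gabrb2, 0.83 for Ip6k2 and -0.95 for Gng13. Those of anti-ANG2 (0.0979% of genes called) were -0.80 for Scgn, -0.65 for Gabrb2, 0.68 for Ip6k2 and -0.04 for Gng13, the first and the third called. Lrrn3 (-1.23), Qpct (-1.08), Gsg1 (-0.83) and Gpm6a (-0.83) were also called lower with anti-ANG2 than with IgG. Crot (-0.58) and S1pr3 (-0.86) had negative log2 folds there without a call.

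Set beside the control retinas without OIR, 10 of the 11 genes had a lower mean in bispecific retinas, with Ip6k2 as the exception. Of all tested genes 47% had a negative log2 fold against control retinas. The 11 genes were chosen with these same bispecific and IgG libraries. Neither this count nor the calls and means of these genes given below are independent of that choice. The control group held 2 libraries with mostly Xist and 2 with mostly Y-linked counts, unlike the bispecific and IgG groups. In the direct comparison with control retinas (0.443% of 23495 genes called), the bispecific antibody gave a call for 3 of the 11. Ip6k2 was higher, at 80.4 ± 10 CPM against 34.7 ± 3.26 CPM in control retinas (log2 fold 1.21 ± 0.14, SE, edgeR adjusted p = 3.85e-07). Gabrb2 was lower, at 21.4 ± 3.09 CPM against 45.4 ± 9.71 CPM in control retinas (log2 fold -1.09 ± 0.18, adjusted p = 0.000304). Scgn was lower, at 125 ± 21 CPM against 188 ± 14.7 CPM in control retinas (log2 fold -0.58 ± 0.13, adjusted p = 0.0168). Crot and Gng13 were called higher in IgG retinas than in control retinas, a comparison in which 0.919% of genes were called (edgeR, Crot log2 fold 0.64, adjusted p = 0.0159; Gng13 log2 fold 0.75, adjusted p = 0.0355). In bispecific retinas they averaged 92.9 ± 14.3 CPM and 53.1 ± 9.38 CPM, against 99.7 ± 11.6 CPM and 61.3 ± 3.4 CPM in control retinas, with no call.

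**Figure D5:**
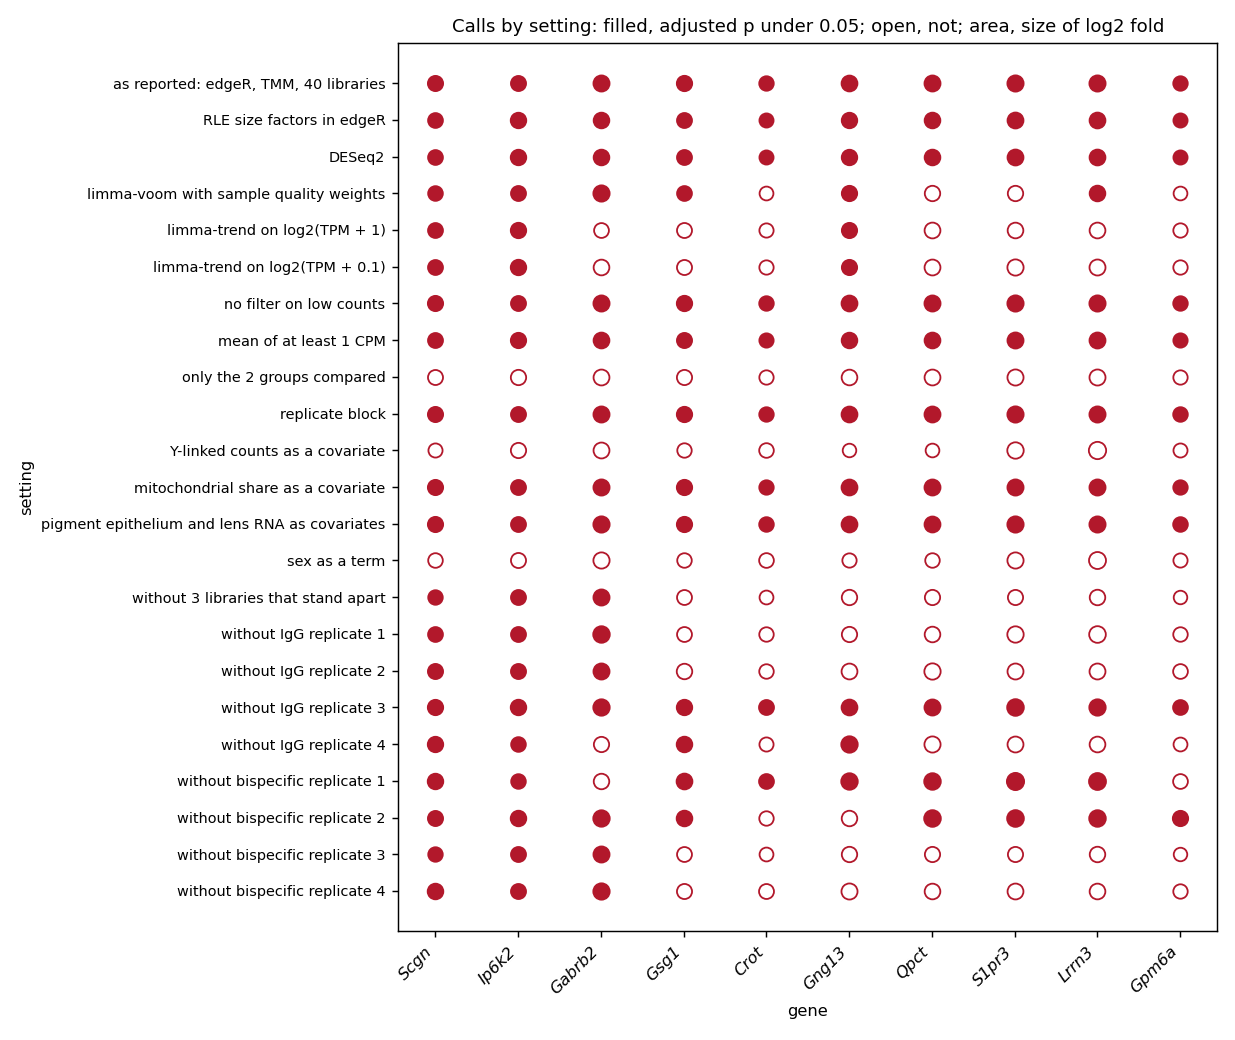
Calls of 10 genes (x axis) under each processing setting (y axis). Filled circles have an adjusted p under 0.05, open circles do not, and the area grows with the size of the log2 fold; the Scgn and Ip6k2 columns stay filled in all 8 settings that leave out 1 library, and both are open with sex as a term.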

How the data were processed

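Retinal RNA was amplified with SMART-Seq chemistry and made into Nextera XT libraries, per the labels' protocols. The authors deposited expected counts and TPM per gene, made with STAR 2.7.10a and RSEM 1.3.3 on GRCm38.p4, per the submitters' processing notes. The annotation, strand setting and any use of molecular identifiers are not given in the sources used here, so reads of overlapping genes cannot be separated, and floors cover counting error only. A copy suffix marks 2036 of 42037 symbols.

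Expected counts, of which 15.7% of those above 0 were not whole, were rounded. edgeR 4.0.16 (R 4.3.3) was run on all 40 libraries in 10 groups, with TMM scaling, a filter on low counts by group and a robust quasi-likelihood fit, and Benjamini-Hochberg adjustment over all 23495 tested genes. The alternatives used DESeq2 1.42.0, limma 3.58.1 on voom weights or log2 TPM with a pseudocount of 1 or 0.1, other scalings, filters, covariates and a replicate block, and left out each library in turn. The sex term and the fit without 3 libraries that stood apart were chosen after seeing the data. These 3 were bispecific replicate 3, anti-VEGFA replicate 3 and anti-ANG2 replicate 1, all at P19. A floor is 3 counts. The procedure was tested on simulated counts.

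Totals were 9160000 to 25800000 expected counts per library. The text names up to 12 called genes in each direction whose groups do not overlap and whose higher group averages 5 CPM or more, filled up to 6 by the smallest p where fewer are called. It also names called members of lists with at least 2 of them, up to 5 called genes per direction in other comparisons, and a fixed set of target, vessel, glial, myeloid, lens, pigment epithelium and sex-linked genes. Genes named beyond these were chosen after their values were seen, as list members at the unadjusted level, as markers, or as calls in another comparison. The genes, lists and tests were chosen with earlier results of these data known. List summaries are descriptions. Some genes, 1 of the 11 called among them, are counted but not reported here.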

Additional observations from a re-analysis of the deposited data

Results flagged for a closer look

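Dixon's test was applied to 84 groups of 4 values at P19, and 5 held a library far from the other 3; chance flags about 1 in 20 groups. The scaling (TMM) factor of bispecific replicate 3 was 1.249, against 0.913 to 0.936 in the other bispecific libraries. Tek was at 3.94 CPM in the same library and at 0.0655 to 0.613 CPM in the others of its group. Cryaa, a lens gene, was at 146 CPM in bispecific replicate 1, where the other 3 held 1.23 to 16.7 CPM. Ccl2 was at 1.16 CPM in bispecific replicate 4, against 0.262 to 0.350 CPM in the rest of the group. Aif1 was at 1.22 CPM in IgG replicate 4, against 2.21 to 2.34 CPM in the other IgG libraries.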

How the results depend on the processing

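The number of genes called between bispecific and IgG retinas at P19, 11 in the report, was 73 with DESeq2, 4 with limma on either log2 TPM scale, 6 in a fit to the 2 groups alone, 18 with the mitochondrial share as a covariate, and 0 both when Y-linked counts entered as a covariate (994 at an unadjusted p under 0.05) and with sex as a term. Without the 3 libraries that stood apart it was 9, of which Scgn, Ip6k2 and Gabrb2 were shared with the 11. Of these libraries only bispecific replicate 3 belongs to the groups compared. Leaving out 1 library gave 3 to 14. Each of the 11 genes kept its sign in all 22 alternatives. The age difference, with no call in the report, gave 19 calls with DESeq2, 1 with limma on log2(TPM + 1) and 0 to 2 with 1 library left out. Against anti-VEGFA the 13 calls became 167 with DESeq2, 135 with voom weights, 5 when Y-linked counts entered as a covariate and 2 to 460 with 1 library left out. Against anti-ANG2 DESeq2 called 419, limma on log2(TPM + 1) 3, and leaving out 1 library gave 0 to 709. The causes were not tested. No called gene changed sign, while uncalled named genes did so in 58 of 585 values, and the medians of the antibody target, HIF, barrier, pericyte, glycolysis, microglia (all 3 lists), reactive gliosis, ganglion cell and pigment epithelium lists changed sign in at least 1 alternative.

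With the replicate number as a block the fit called 11 genes between bispecific and IgG retinas, all 11 shared. Deviations from the group means of same-numbered libraries correlated at 0.0424, 0.0241, 0.154 and -0.0286 across genes. Those of differently numbered libraries correlated at -0.119 to 0.054. With 4 libraries a group these values cannot decide whether the numbers pair the retinas.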
